A study of Mus musculus with 4 samples.

Results

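The genes described here encode the enzymes that attach glutathione, glucuronic acid or sulfate to small molecules, and the carboxylesterases, which split esters and amides. Their probes were chosen by name, as the non-control probes of the array whose gene name begins with Gst, Mgst, Ugt, Sult or Ces followed by a member number. This gave 61 gene names on 82 probes, out of 28145 names on 41172 probes with a usable spot.

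RNA came from stable lines of EPH-4, a non-malignant mouse mammary epithelial cell line that became immortal spontaneously. EV-50 carries the empty H1-2 vector and shGR-19 carries an shRNA vector against the endogenous glucocorticoid receptor (GR, gene Nr3c1). Both lines were kept in serum-free DMEM/F-12 with 2 µg/mL puromycin, and no glucocorticoid was added, so that the comparison asks what GR without ligand does to gene expression. Each line is a single clone, and 300 ng RNA was labelled with Cy3 in duplicate for 2 Agilent whole mouse genome arrays per line (4 arrays). Nothing states that the duplicates were separate cultures, so the p-values measure only the spread between these arrays, and that number of arrays limits the precision.

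Glutathione S-transferases (Gst, and the membrane-bound Mgst) join glutathione to electrophiles and several also reduce lipid peroxides. UDP-glucuronosyltransferases (Ugt) and sulfotransferases (Sult) make steroids, phenols and drugs more soluble by adding a sugar acid or a sulfate. Carboxylesterases (Ces) work mostly in the endoplasmic reticulum on drug esters, acylglycerols and cholesteryl esters. All of these families are best known from liver and intestine, and glutathione transferases are also prominent in epithelia such as the mammary duct. Many genes of these families lie side by side in clusters.

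The array's gene names are old. By RefSeq accession 59 of the 61 names were matched, and 7 carboxylesterases now have another symbol: Ces1 is Ces1g, Ces2 is Ces2c, Ces3 is Ces1d, Ces5 is Ces2e, Ces6 is Ces2a, Ces7 is Ces5a and Ces8 is Ces4a. The array's names are used below.

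The sources were the scanner output of each array and a table of log2 values that the authors made from the same samples. Scanner values are given as log2 of a probe's signal relative to the 75th percentile of its own array. In the value table each probe is centred on its own median, so the table holds differences and no levels. The brightest Nr3c1 probe had scanner values of 1.73 and 1.85 for the label EV-50 (replicates 1 and 2, the order used throughout). It read 1.39 on the array labelled shGR-19 replicate 1 but -0.11 on the array labelled shGR-19 replicate 2. Thus the array labelled shGR-19 replicate 1 lay close to the EV-50 arrays for the targeted gene, whereas the value table gave a difference of -1.94 ± 0.048 (shGR-19 minus EV-50, ± SE, limma adjusted p = 0.00215). Over all kept probes the difference between the lines had an SD of 0.38 between the arrays labelled replicate 1 and 0.57 between those labelled replicate 2, and in the value table of 0.61 and 0.62. Whether each scanner file carries the label of its own sample was not tested, and every scanner difference between the lines rests on those labels. Both sources are given for each member gene with a call, with the arrays named as they were labelled.

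Most glutathione transferases gave signal in these cells, and most glucuronosyltransferases and sulfotransferases did not. Of the 26 Gst probes 18 were well above background on 4 arrays, 6 on 1 to 3 arrays and 2 on no array. Of the 6 Mgst probes 5 were well above background on 4 arrays. Carboxylesterases were intermediate, with 5 of 11 probes on 4 arrays and 4 on none. Only 1 of 21 Ugt probes and 4 of 18 Sult probes were well above background on 4 arrays, and 16 and 12 were so on no array. At the level of genes, 22 of the 61 were well above background on no array, namely 10 Ugt, 10 Sult and 2 Ces genes.

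**Figure D1:**
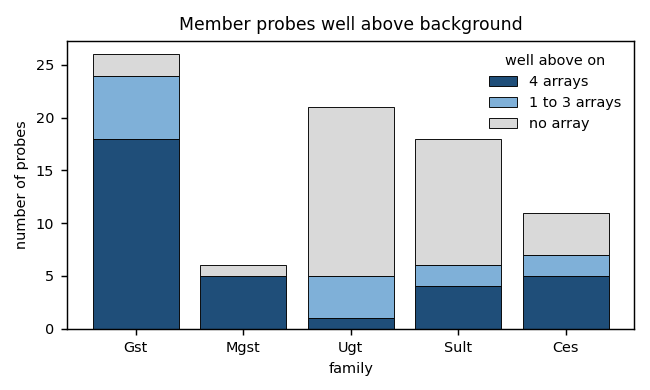
Number of probes of each family (vertical axis) that were well above background on all 4 arrays, on 1 to 3 arrays or on no array. Gst and Mgst probes were mostly above background on 4 arrays, while 16 of 21 Ugt and 12 of 18 Sult probes were so on none.

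For the comparison of the lines, a probe had to be well above background in duplicate in EV-50, in shGR-19 or in both. This kept 38 of the 82 probes, from 32 genes (20 Gst, 5 Mgst, 2 Ugt, 5 Sult and 6 Ces probes). Another 7 genes were above background on some array but had no kept probe. A probe was counted as changed where the lines differed by over 2-fold and limma's p, adjusted by Benjamini-Hochberg over all kept probes of the array, was below 0.01. A single gene was said to pass, or to be lower or higher, at an adjusted p below 0.01 whatever its fold.

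In the value table, the carboxylesterases Ces1 and Ces5 and the glutathione transferases Gstt1, Gstm1, Gsta1, Mgst1 and Mgst2 were more than 2-fold lower in shGR-19. The changed probes were 10 of 38 (26.3%), all lower, from 7 genes, while over the whole array 2.39% of 24439 kept probes were changed downwards and 1.87% upwards. Without the limit on the fold, 13 member probes from 10 genes were lower and 0 were higher at an adjusted p below 0.01, against 6.04% and 5.53% of all kept probes. By family these were 7 of 20 Gst, 3 of 5 Mgst and 3 of 6 Ces probes, and 0 of the 2 Ugt and 5 Sult probes. The median difference was -0.47 over the member probes and 0.0087 over all kept probes. Ces had a median of -1.94, Mgst of -1.25, Gst of -0.52, Ugt of -0.37 and Sult of 0.0027. The 25 member probes that missed the adjusted threshold lay between -1.58 and 0.36.

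In the scanner files, limma called 0 member probes higher and 0 lower, as it did over the whole array (0% of 24436 kept probes in either direction). At an unadjusted p below 0.05 there was 1 member probe and 204 in all, and the smallest adjusted p was 0.933 over the array. The median difference between the lines was -0.17 over the member probes and 0.016 over all kept probes, and 24 of the 38 were lower in shGR-19. With any 1 of the 4 columns of the value table left out, 1 line had a single column, so only the differences were compared. Those of the 10 called genes kept their sign. For example, Ces1 ranged from -3.36 to -3.35, Mgst2 from -1.38 to -1.11 and Gsta1 from -1.13 to -0.93. With the replicate number as a block there were 0 calls in the value table. With all probes of the array kept, 2 of the member probes were called in it, both for Ces1.

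**Figure D2:**
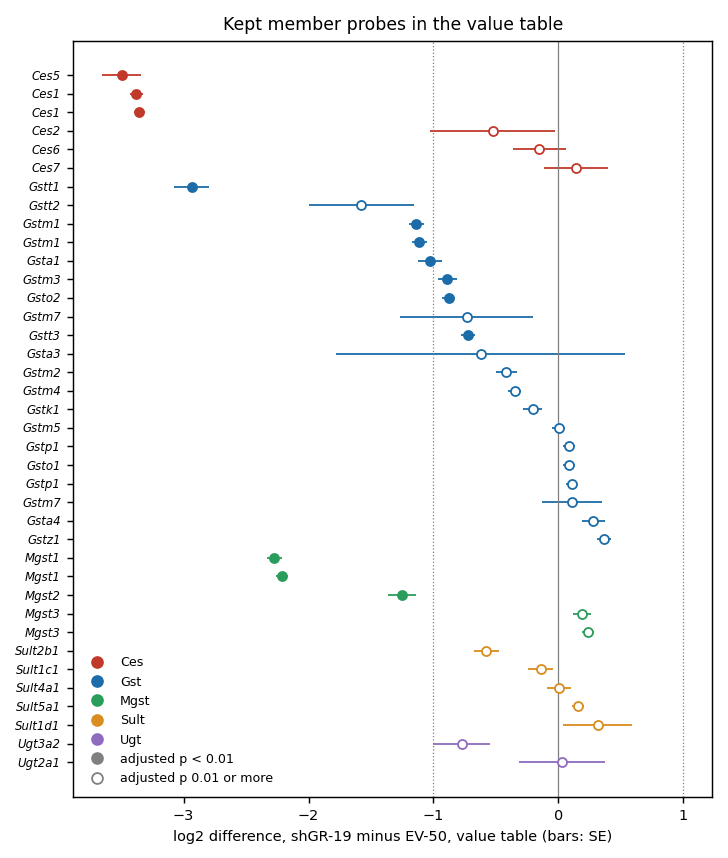
Log2 difference between the lines (shGR-19 minus EV-50, horizontal axis) in the value table for the 38 kept probes, grouped by family, with standard errors from limma as bars. Filled points have an adjusted p below 0.01, and dotted lines mark a 2-fold difference. The 10 filled points beyond the left dotted line are probes of Ces1, Ces5, Gstt1, Mgst1, Mgst2, Gstm1 and Gsta1.

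Ces1 and Ces5 had the largest differences of all members. Ces1 (Ces1g) is an esterase of liver that acts on lipids and drugs, and its probes lie in mm9 on the minus strand at chr8:95826722-95826781 and chr8:95826742-95826801. The files give probe positions but do not say which exon or UTR a probe is in. The brighter Ces1 probe read 1.68 and 1.67 in the EV-50 columns of the value table and -1.67 and -1.68 in the shGR-19 columns, a difference of -3.35 ± 0.045 (10.2-fold, adjusted p = 0.0012). Its scanner values were 2.58 and 3.76 for the arrays labelled EV-50, and 2.54 and 0.37 for those labelled shGR-19. Only the array labelled shGR-19 replicate 2 was low, and the array labelled shGR-19 replicate 1 differed by only -0.03 from the array labelled EV-50 replicate 1. The scanner difference was -1.71 ± 0.86. The other Ces1 probe gave -3.38 ± 0.049 in the table, but both probes share 40 of their 60 bases and are not independent measurements.

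Ces5 (Ces2e) belongs to the group of carboxylesterases best known from intestine. Its kept probe, at chr8:107458425-107458484 on the plus strand of mm9, read 1.80 and 1.61 in the EV-50 columns of the table and -1.61 and -1.96 in the shGR-19 columns, a difference of -3.50 ± 0.15 (11.3-fold, adjusted p = 0.00339). The scanner values were -3.25 and -1.44 on the EV-50 arrays and -3.28 and -4.89 on the shGR-19 arrays, so the array labelled EV-50 replicate 2 was the highest and that labelled shGR-19 replicate 2 the lowest. The second Ces5 probe was well above background on the array labelled EV-50 replicate 2 only. Ces2, Ces6 and Ces7 did not pass, with differences of -0.53 ± 0.50, -0.15 ± 0.21 and 0.14 ± 0.26. Ces3 and Ces8 were well above background on no array.

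The RefSeq promoters of Ces1 and Ces5 are shown because these genes had the largest differences. Those of Gstm1 and Mgst1 are shown because theirs hold the searched motifs. The Gsta1 window also held 1 of the motifs and is not shown. Each sequence is the 250 bases before the annotated start in GRCm38.p6, written 5′ to 3′ along the gene. Capitals mark AGAACA, the hexamer bound by GR, TGACNNNGC, the core of the element bound by NRF2, and GCGTG, the core bound by the aryl hydrocarbon receptor, on either strand. Ces1g lies at chr8:93337210-93337459 on the minus strand, Ces2e at chr8:104926010-104926259 on the plus strand, Gstm1 at chr3:108017974-108018223 on the minus strand and Mgst1 at chr6:138140277-138140526 on the plus strand.
Ces1 (Ces1g): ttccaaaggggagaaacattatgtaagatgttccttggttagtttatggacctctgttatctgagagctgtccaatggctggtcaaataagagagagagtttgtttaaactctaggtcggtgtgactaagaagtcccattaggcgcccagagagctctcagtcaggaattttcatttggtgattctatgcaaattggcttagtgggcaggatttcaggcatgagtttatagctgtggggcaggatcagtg
Ces5 (Ces2e): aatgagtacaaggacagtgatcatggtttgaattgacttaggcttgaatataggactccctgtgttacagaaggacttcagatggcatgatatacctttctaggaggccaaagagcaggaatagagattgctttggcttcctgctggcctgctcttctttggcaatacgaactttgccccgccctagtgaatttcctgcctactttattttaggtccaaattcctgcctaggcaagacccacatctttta
Gstm1: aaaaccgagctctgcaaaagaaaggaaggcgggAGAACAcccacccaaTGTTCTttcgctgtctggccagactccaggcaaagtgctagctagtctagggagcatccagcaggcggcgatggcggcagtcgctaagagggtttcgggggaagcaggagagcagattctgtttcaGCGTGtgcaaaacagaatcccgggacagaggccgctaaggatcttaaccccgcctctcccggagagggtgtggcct
Mgst1: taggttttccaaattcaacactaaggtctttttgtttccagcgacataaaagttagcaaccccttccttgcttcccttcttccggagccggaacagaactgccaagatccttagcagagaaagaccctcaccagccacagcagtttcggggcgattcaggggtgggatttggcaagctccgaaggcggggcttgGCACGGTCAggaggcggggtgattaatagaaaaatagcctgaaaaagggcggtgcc

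Neither carboxylesterase promoter held any of the 3 motifs in its 300-base window (250 bases before the start and 50 after it). The Gstm1 window printed held 2 GR hexamers, 1 on each strand, and 1 AHR core, while the Mgst1 window printed held 1 NRF2 core on the reverse strand, beginning 56 bases before the start. A second annotated start of Gstm1 had 0 GR hexamers and 1 AHR core, and a second start of Mgst1 had 1 GR hexamer and no NRF2 core. Of the 14 windows listed for the 10 genes with a call, 2 held the GR hexamer, 1 the NRF2 core and 3 the AHR core. The 2 Gstm1 windows overlap and share the same AHR core, and the remaining AHR core was in the Gsta1 window. Over 63 windows of 52 member genes, 22.2% held the GR hexamer, 6.35% the NRF2 core and 19.05% the AHR core. In all 32851 windows of the table these shares were 18.97%, 12.4% and 32.4%. A match of letters is a description and says nothing of binding.

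Microsomal glutathione transferases split into 2 that were lower and 1 that was not. Mgst1, an abundant enzyme of the endoplasmic reticulum and outer mitochondrial membrane that also reduces lipid hydroperoxides, had probes at chr6:138104741-138104800 and chr6:138104944-138105003 (mm9, plus strand). In the value table the brighter probe read 1.11 and 1.12 in EV-50 and -1.11 and -1.21 in shGR-19, a difference of -2.27 ± 0.059 (4.83-fold, adjusted p = 0.00219), and the other probe gave -2.21 ± 0.051. Scanner values of the brighter probe were 3.25 and 2.98 for the label EV-50, against 3.20 and 0.83 for the label shGR-19. Here 3 arrays were alike and only that labelled shGR-19 replicate 2 was low. Mgst2, which can make leukotriene C4, had a table difference of -1.25 ± 0.11 (adjusted p = 0.00798). Its scanner values were 0.42 and -1.52 on the EV-50 arrays and 0.37 and -2.97 on the shGR-19 arrays, so both arrays labelled replicate 1 were above both labelled replicate 2. Mgst3, a related peroxidase, had table differences of 0.24 ± 0.049 and 0.19 ± 0.074, neither of which passed (adjusted p = 0.0371 and 0.132).

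All of the theta class transferases with a kept probe had negative differences in the value table. These enzymes handle small halogenated compounds, and their genes lie next to each other on chromosome 10 in the order Gstt3, Gstt1, Gstt4 and Gstt2 (mm9, from 75236966 to 75295265). Gstt1, whose probe is listed at chr10:75249693-75256857 on the minus strand, a span longer than the probe itself, read 1.41 and 1.37 in the EV-50 columns and -1.37 and -1.72 in the shGR-19 columns, a difference of -2.94 ± 0.14 (7.65-fold, adjusted p = 0.00361). Its scanner values were -3.52 and -2.45 on the EV-50 arrays and -3.48 and -4.57 on the shGR-19 arrays. Gstt3 fell by less, with a table difference of -0.72 ± 0.057 (adjusted p = 0.0066), and its scanner values of 2.90, 2.78, 2.87 and 1.96 were again low on the array labelled shGR-19 replicate 2 only. Gstt2 had a difference of -1.58 ± 0.42 that did not pass (adjusted p = 0.0616). Gstt4 had 2 probes, and neither was kept. The dimmer was well above background on no array, and the brighter on 2 arrays, 1 of each line. The brighter probe, named after its values were seen, read 1.58 and 1.46 in the EV-50 columns and -1.46 and -1.53 in the shGR-19 columns.

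Within the mu class, whose genes form a cluster on chromosome 3, Gstm1 and, by less than 2-fold, Gstm3 were lower at an adjusted p below 0.01, and the others were not. In the order of the probes along mm9 (107701101 to 107843861), the table differences were 0.0016 ± 0.054 for Gstm5, 0.11 ± 0.24 for the brighter Gstm7 probe, -0.89 ± 0.077 for Gstm3, -0.42 ± 0.083 for Gstm2, -1.11 ± 0.059 for Gstm1 and -0.35 ± 0.052 for Gstm4. Gstm6, between Gstm7 and Gstm3, had no kept probe. The adjusted p was 0.00404 for Gstm1 and 0.00767 for Gstm3, and 0.0335 and 0.019 for Gstm2 and Gstm4. Gstm1, a major cytosolic transferase, read 3.55 and 2.17 under the label EV-50, and 3.62 and 1.10 under the label shGR-19. Its other probe gave a table difference of -1.14 ± 0.059. Gstm3 read 1.56 and 0.43 against 1.72 and -0.53. In both genes the replicate 1 arrays were the higher ones within each line. The dimmer Gstm7 probe was well above background on the shGR-19 arrays only, and was kept through them. Its scanner means were -5.10 in shGR-19 and -6.50 in EV-50 (limma adjusted p = 0.9998). On the array labelled EV-50 replicate 1 the lowest signal well above background was -4.83. The shGR-19 values of -5.02 and -5.17 lay below that, so no lower bound on the fold can be given. The table difference of this probe went the other way (-0.74 ± 0.53). Cross-hybridization among the mu class probes was not tested. The closest pair of probes from different member genes, of Gstm2 and Gstm1, matched at 31 of 60 bases without gaps.

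The alpha class includes enzymes that remove lipid hydroperoxides and, in Gsta4, the aldehyde 4-hydroxynonenal. Gsta1 was lower in the table, at 0.54 and 0.44 in EV-50 and -0.64 and -0.44 in shGR-19, a difference of -1.03 ± 0.095 (2.04-fold, adjusted p = 0.00839). The scanner arrays gave a much wider range for it, with 1.34 and -3.54 under the label EV-50, and 1.65 and -4.99 under the label shGR-19. The difference between the lines was -0.57 ± 2.80, far inside its error. Gsta2, named after its values were seen, also had both replicate 1 arrays above both replicate 2 arrays, at -0.46 and -6.78 against -1.12 and -8.28, and was well above background on the arrays labelled replicate 1 only. Gsta4 read 0.63 and -1.52 against 0.85 and -1.28, and its table difference of 0.28 ± 0.092 did not pass (adjusted p = 0.0955). The kept Gsta3 probe was dim and its columns did not agree within a line, with a difference of -0.62 ± 1.15.

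Of the remaining cytosolic classes only Gsto2 passed, with a difference under 2-fold. Gstp1, the pi class enzyme of epithelia, was the brightest Gst probe. It read 7.19 and 7.17 on the EV-50 arrays and 7.28 and 7.13 on the shGR-19 arrays, with a table difference of 0.11 ± 0.046 (adjusted p = 0.162) for this probe and 0.084 ± 0.049 for the other. The omega class, which reduces dehydroascorbate and methylated arsenic, divided: Gsto2 read 0.48 and 0.41 against -0.41 and -0.44 in the table (-0.88 ± 0.053, adjusted p = 0.00471), and Gsto1, its neighbour on chromosome 19, had 0.087 ± 0.047 (adjusted p = 0.238). The scanner values of Gsto2 were -1.08 and -0.61 on the EV-50 arrays and -1.36 and -1.39 on the shGR-19 arrays. Both shGR-19 arrays thus lay below both EV-50 arrays, although the difference of -0.53 ± 0.26 did not pass. Gstz1, an isomerase of tyrosine breakdown, had the largest positive table difference of the Gst genes at 0.36 ± 0.054 (adjusted p = 0.0187). Gstk1, the mitochondrial and peroxisomal kappa class enzyme, had -0.21 ± 0.078 (adjusted p = 0.125).

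**Figure D3:**
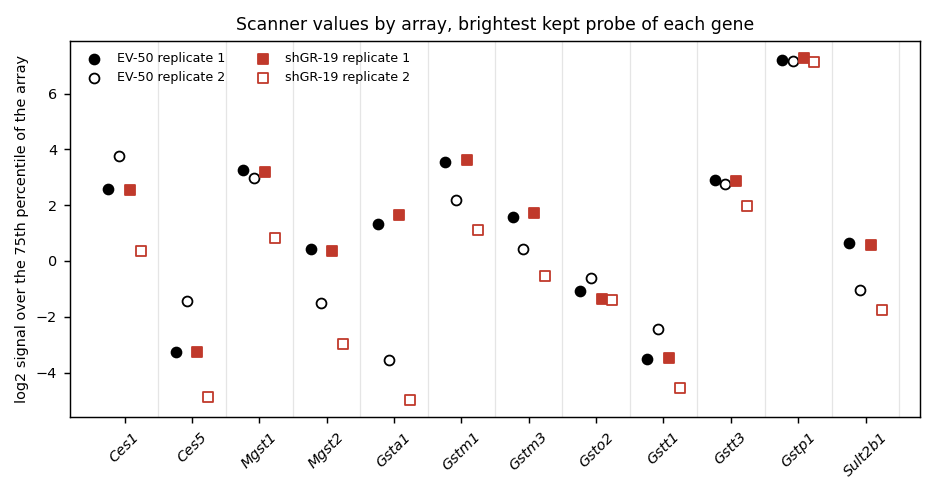
Scanner values of the brightest kept probe of 12 member genes on each array, as log2 signal over the 75th percentile of the array (vertical axis). Filled symbols are arrays labelled replicate 1 and open symbols those labelled replicate 2. Filled symbols of the 2 lines differ by at most 0.31 for the genes with a call, and Gstp1 lies between 7.13 and 7.28 on all 4 arrays.

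Glucuronosyltransferases and sulfotransferases had few probes that could be compared, and none passed. Ugt3a2, which uses sugars other than glucuronic acid, had a table difference of -0.78 ± 0.23 (adjusted p = 0.0776) and scanner values of -4.34 and -4.96 against -4.88 and -5.53. Ugt2a1, known from olfactory epithelium, had 0.029 ± 0.34 (adjusted p = 0.955). Sult2b1, a sterol sulfotransferase of skin and other epithelia, was the brightest sulfotransferase probe and had -0.58 ± 0.098 (adjusted p = 0.0246). Its scanner values were 0.63 and -1.03 for EV-50, against 0.59 and -1.75 for shGR-19. Sult1d1, a sulfotransferase of catecholamines and phenols, had the largest positive value of its family at 0.31 ± 0.28 (adjusted p = 0.44). For the Ugt and Sult genes that were well above background on no array, a difference was not detectable with these probes.

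The difference between the lines depended on which pair of scanner arrays was read. Between the arrays labelled replicate 1, 0 of the 38 member probes were more than 2-fold lower in shGR-19 and 2 were more than 2-fold higher (Gstm7 and Sult1d1, both dim), against 1.10% and 2.46% of all kept probes. Both of these higher probes were kept through the shGR-19 arrays alone. Neither was well above background on the array labelled EV-50 replicate 1. Between the arrays labelled replicate 2, 12 member probes (31.6%, 9 genes) were more than 2-fold lower and 0 were higher, against 3.24% and 2.32% of all kept probes. The 10 probes changed in the value table were all among these 12. For the 13 probes lower at an adjusted p below 0.01 in the table, the replicate 1 arrays differed by at most 0.31 in either direction. Ces1 differed by -0.03 between the replicate 1 arrays and by -3.38 between the replicate 2 arrays, Mgst1 by -0.06 and -2.16, and Gstt1 by 0.04 and -2.12. These are single arrays, so a pair has no error of its own.

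**Figure D4:**
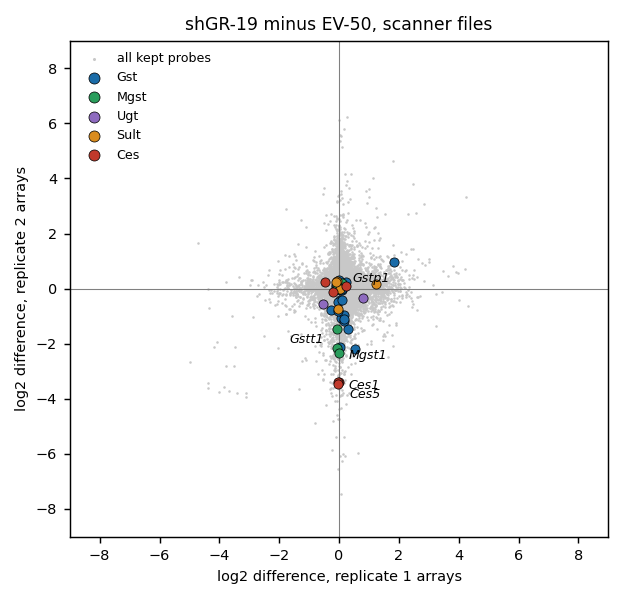
Log2 difference between the lines (shGR-19 minus EV-50) on the scanner arrays labelled replicate 1 (horizontal axis) and replicate 2 (vertical axis). Grey points are all kept probes and coloured points the 38 member probes by family. The members with calls lie along the lower vertical axis, with Ces1 at -0.03 and -3.38.

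A second pattern in the scanner files followed the replicate number rather than the line. For 8 of the 38 member probes (21.1%), from 7 genes, both arrays labelled replicate 1 were more than 2-fold above both labelled replicate 2, and for 0 it was the other way. Over all kept probes these shares were 1.93% and 2.12%. The genes were Gsta1, Gsta4, Gstk1, Gstm1, Gstm3, Mgst2 and Sult2b1, the pattern was chosen after their values were seen, and it is given without a test. The gap between the lower replicate 1 array and the higher replicate 2 array was 4.87 for Gsta1, 1.92 for Gsta4, 1.89 for Mgst2 and 1.62 for Sult2b1. The value table did not hold this pattern: Gsta4, for example, read -0.21 and -0.06 in its EV-50 columns and 0.06 and 0.22 in its shGR-19 columns. Its cause was not tested.

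**Figure D5:**
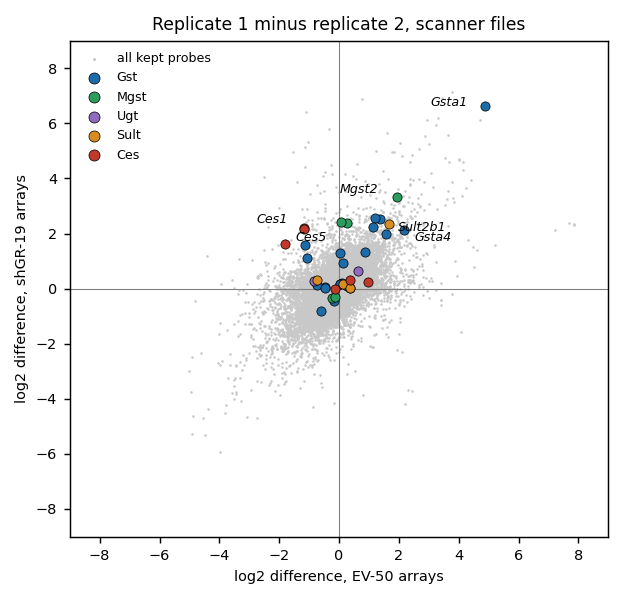
Log2 difference between the arrays labelled replicate 1 and replicate 2 in EV-50 (horizontal axis) and in shGR-19 (vertical axis), from the scanner files. Grey points are all kept probes and coloured points the 38 member probes. Gsta1 lies at the upper right at 4.87 and 6.64, and Ces1 and Ces5 lie at the upper left.

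Other genes around the clusters were read in the value table beside the 6.04% of all kept probes that were lower and the 5.53% that were higher at an adjusted p below 0.01. Within 500000 bases of the mu class cluster there were 33 other kept probes, of which 0 were lower and 3 higher, with a median of 0.19. Around the theta class cluster 27 other probes had a median of 0.096, with 2 higher and 1 lower, that of Ggt5, a glutamyltransferase that cleaves glutathione conjugates, with a difference of -2.61 ± 0.15 (adjusted p = 0.00422). Around Ces1, Ces3 and Ces7 there were 6 other probes, of which 0 were lower and 2 higher, and around Ces2, Ces5, Ces6 and Ces8 there were 48, of which 3 were lower and 6 higher. Around the alpha class genes on chromosome 9 it was 0 lower and 2 higher of 16, around Gsto1 and Gsto2 0 lower and 2 higher of 9, around Mgst1 0 of 4 and around Mgst2 0 of 14. The largest decrease among all of these neighbours was that of BC015286.

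By its accession BC015286 is now named Ces2b, so it is a carboxylesterase that the older name hid from the choice of probes. It was 1 of 11 genes (13 probes) whose accession RefSeq places in the same families but whose array name does not say so. Among these, 4 probes were kept. The BC015286 probe at chr8:107362421-107362480 had a table difference of -3.28 ± 0.19 (adjusted p = 0.00434), and read -5.41 and -4.11 on the EV-50 arrays and -5.19 and -5.87 on the shGR-19 arrays. This probe was well above background on 3 arrays. On the array labelled EV-50 replicate 1 it lay below the lowest signal well above background there (-4.83). It was thus kept through the shGR-19 arrays alone. The second BC015286 probe did not pass, at -1.09 ± 0.28 (adjusted p = 0.0552). The kept probes of Es1 (Ces1c) and BC021614 (Gstp3) had 0.42 ± 0.36 and -0.40 ± 0.44, and did not pass. These genes were looked up after the values were seen and are not counted among the members.

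Genes that supply or work beside these enzymes were read from a list of 55 genes, 53 of them on the array, with 64 kept probes of 39 genes. Of these probes 5 were more than 2-fold lower in the value table with an adjusted p below 0.01 and 1 was higher, where 2.39% and 1.87% of all kept probes were so. Without the limit on the fold 9 were lower and 3 higher, against 6.04% and 5.53% of all kept probes. The median of the list was -0.025. Among efflux pumps, both probes of Abcg2, the breast cancer resistance protein, fell in the table (-1.11 ± 0.056 and -1.26 ± 0.058). So did 2 of 3 probes of Abcb1b, a P-glycoprotein (-0.95 ± 0.051 and -1.02 ± 0.073). No kept probe of Abcc3 or Abcc4 passed. The brighter Abcg2 probe read 1.12 and 1.88 on the EV-50 arrays and 1.17 and 0.75 on the shGR-19 arrays. The brightest Abcb1b probe read 3.05 and 3.42 against 3.15 and 2.58. Of the other conjugating enzymes, Nnmt, which methylates nicotinamide, fell by 3.10 on the log2 scale, and Inmt, an indole methyltransferase, rose by 1.80, as did Nat2, an arylamine acetyltransferase, by 0.98. The scanner values of Nnmt were -3.62 and -4.58 for EV-50 against -3.88 and -7.68 for shGR-19. Those of Inmt were 1.64 and -1.27 against 1.62 and 0.34, and those of Nat2 were -0.33 and -1.27 against -0.40 and -0.37. Slc35d1, which carries UDP-glucuronic acid into the endoplasmic reticulum, fell by 0.92, the paraoxonase Pon3 by 0.54 on 1 of 2 probes, and the aryl hydrocarbon receptor Ahr by 0.57. Pon2 rose by 0.75 on 1 of 3 probes.

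Of 21 kept probes of glutathione and NRF2 genes 1 was lower in the table and 0 were higher at an adjusted p below 0.01. The lower one was that of Ggt5, kept through the shGR-19 arrays alone. Over all kept probes the shares were 6.04% and 5.53%. The median of the 21 probes was 0.051. Gclc, the catalytic subunit of the enzyme that limits glutathione synthesis, had -0.0048 ± 0.064, and Gclm, its modifier subunit, had -0.43 ± 0.11 on its brighter probe (adjusted p = 0.060). Nqo1, a quinone reductase under NRF2, had 0.51 ± 0.068 (adjusted p = 0.016) and Hmox1, heme oxygenase, -0.43 ± 0.053 (adjusted p = 0.013). On the scanner arrays both were higher on those labelled replicate 1: Hmox1 read 4.25 and 2.95 for EV-50 and 4.19 and 2.59 for shGR-19. The scanner files gave 0 calls for the list in either direction.

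Markers of the labelled cell type were present, and all 6 epithelial genes, Krt8, Krt18, Epcam and Cdh1 among them, were well above background on 4 arrays. Of the hepatocyte markers Alb, Apoa1 and Ttr were well above background on no array, nor were Ptprc and Pecam1. Of the 4 fibroblast genes 2 had a kept probe, and both kept probes were higher in shGR-19 in the table (Col1a2 3.27 ± 0.046 and Pdgfra 1.16 ± 0.058). The Pdgfra probe passed the filter only by its shGR-19 duplicates, because just 1 of its EV-50 spots was well above background. The other probe of each of these genes was well above background on at most 1 array and was not compared. Summed over the list, using the brightest probe of each gene, the linear signal relative to the 75th percentile was 1.66 and 2.94 for EV-50, 1.53 for shGR-19 replicate 1 and 32.5 for shGR-19 replicate 2. The basal keratin Krt14 had -1.13 ± 0.049, while Krt5, also a basal keratin, had -0.30 ± 0.31 and did not pass (adjusted p = 0.499). The part of these in the values of the members was not tested, and in bulk RNA fewer cells of a type and less RNA per cell cannot be told apart.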

How the data were processed

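Per the labels and the methods, the authors scanned 4 Agilent arrays and extracted spot intensities with Feature Extraction 10.5.1.1. The deposited intensity of each spot was background-subtracted and not scaled between arrays, and other deposited columns flag spots well above background. The authors also deposited log2 values, made in GeneSpring and centred per probe, which show differences but no levels.

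Control spots and spots flagged as outliers (74 to 139 an array, 0 of the 91 member spots) were left out, spots of 1 probe were averaged, and log2 intensities were centred on the 75th percentile of the array (542 to 613). Well above background were 23290 to 27358 non-control spots an array, counted before outliers were left out. The comparison used limma 3.58.1 (R 4.3.3, statmod 1.5.0), 2-sided, on 24436 kept probes of the scanner files and 24439 of the value table, and the code was tested on simulated data. Values after ± are standard errors. With 2 arrays against 2 no exact permutation test was used.

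Genes named were those at an adjusted p below 0.01, and in each family the brightest and those with the largest increase and decrease in the table. The members, the lists and the alternatives were chosen with earlier results of these data known. The alternatives were normexp with an offset of 50, quantile normalization, other filters, an intensity trend, the replicate block, each array left out, a threshold of 0.05, no adjustment, a plain equal-variance test, and 1 probe a gene. Probe coordinates are those of mm9, and promoters are RefSeq's for GRCm38.p6. The 2 builds were not mixed.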

Additional observations from a re-analysis of the deposited data

How the results depend on the processing

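In the scanner files the counts of changed member and list probes were 0 under every alternative on those files, each array left out included (0 to 0 for each count). The value table in place of the scanner files gave 10 lower member probes, and 5 lower and 1 higher list probes. With the replicate number as a block, 0 member probes and 0 list probes were called in either source. The labels do not say that a number pairs samples. Over all kept probes the difference between replicates 1 and 2 had a correlation between the lines of 0.57 in the scanner files and 0.056 in the value table, with 2 pairs. In the value table the 10 lower member probes became 2 with all probes kept and 1 with the adjusted plain test, and 0 to 0 with each column left out. The 5 lower list probes became 1 with all probes kept, 3 with probes well above background on all 4 arrays, 3 with 1 probe a gene, 0 with the adjusted plain test and 0 to 0 with each column left out. The 1 higher list probe became 0, 2, 1, 0 and 0 to 0 under these, and 2 with an intensity trend, with an adjusted p below 0.05 and with an unadjusted p below 0.01. Fewer probes or columns change the adjustment itself. With a column left out 1 line has a single column, so a count of 0 there does not show that the calls depend on that column. The cause of the other moves was not tested.

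Of the single genes, Ugt2a1 reversed with normexp in the scanner files (0.23 to -0.074). With each scanner array left out, differences crossed 0 for Gsta1 (-3.89 to 2.75), Mgst2 (-2.42 to 0.92), Gstm1 (-1.76 to 0.76), Gstm3 (-1.53 to 0.72), Sult2b1 (-1.55 to 0.79), Mgst1 (-2.29 to 0.079), Gstt3 (-0.88 to 0.035), Gstz1 (-0.070 to 0.38), Mgst3 (-0.017 to 0.32), Gstp1 (-0.046 to 0.11) and Ugt2a1 (-0.20 to 0.65). In the value table they did so for Ces7 (-0.16 to 0.43), Sult1d1 (-0.045 to 0.67) and Ugt2a1 (-0.42 to 0.48). In these fits the spread came from the line that still had both arrays. Signal over background limits the Ugt and Sult genes, of which 20 had no probe well above background.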
